A study of Homo sapiens with 42 samples.

Results

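The genes described here encode proteins of the cytosolic ribosome, or paralogs with like symbols (RPL7L1, RPL22L1, RPS27L and RPS4Y1). By symbol, 24 belong to the small subunit and 33 to the large subunit. Together they are 57 of the 5631 genes that had a probe naming only 1 gene on the array. A gene was taken when its symbol was RPL, RPS or RPLP followed by a digit, or RPSA. Pseudogenes and the S6 kinases RPS6KA3, RPS6KA6, RPS6KB1 and RPS6KC1, whose symbols start alike, were left out. Where a gene had several probes, the probe with the highest mean log2 intensity over all arrays stood for it. The 57 genes had 114 probes together, and 29 of them had more than 1. The choice used the symbols and the mean brightness, and no difference between groups.

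The arrays measured mRNA abundance in Hep3B, a human hepatoma cell line, with 42 arrays in 14 groups of 3. Cells received CM, a conditioned medium rich in pro-inflammatory cytokines, or NCM, the control medium, for 15 min, 30 min, 1 h, 3 h, 6 h or 16 h, and a T0 group exists for both media. Each experiment split 1 batch of trypsinized cells into a CM culture and an NCM culture, and 3 such experiments were run at each time, so that every CM array has an NCM partner. What CM contains beyond cytokines, and whether experiment 1 at 1 time shares cells with experiment 1 at another, is not given in the sources used here.

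Values are normalized intensities on the log2 scale, on which 0 lies near the mean intensity of an array, since the deposited values average between 0.999 and 1.00 on each array. The median deposited intensity of the arrays ran from 0.354 to 0.807, and at most 2.12% of an array's values were below 0. Of 12 hepatoma and hepatocyte markers 11 were measured. The probes of APOA2, AFP, TF and ALB were bright, at a mean log2 intensity of 2.55, 2.26, 2.20 and 1.69. The median of the 11 on an array was lower than these means, and ran from 0.69 to 1.65. The 7 measured markers of blood, endothelial and connective tissue cells had mean log2 intensities of -1.95 (VWF) to -0.45 (CD14).

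A ribosome consists of a small subunit, which reads the mRNA, and a large subunit, which joins the amino acids, and both are built from ribosomal RNA and a set of proteins made in near-equal numbers. Most mRNAs of these proteins start with a C followed by a run of pyrimidines, the 5' terminal oligopyrimidine (TOP) tract, through which growth signals that run over mTOR set how well they are translated. In hepatocytes, inflammatory cytokines are known to redirect protein synthesis towards secreted acute-phase proteins.

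The start sites of 10 of the genes are shown because the tract is the feature that most of them share although the choice did not use it. Each line gives 25 bases before and 25 bases from a transcription start in RefSeq (GRCh38.p14), 5' to 3' on the gene's strand. The pyrimidine run from the start is in capitals. Where several starts were listed for a gene, a start with the run was preferred.
RPS3: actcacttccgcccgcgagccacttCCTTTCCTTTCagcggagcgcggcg
RPS18: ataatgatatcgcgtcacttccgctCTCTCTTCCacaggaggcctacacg
RPS14: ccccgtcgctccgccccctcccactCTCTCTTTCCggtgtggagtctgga
RPL10: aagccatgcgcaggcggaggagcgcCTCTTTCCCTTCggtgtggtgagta
RPL36: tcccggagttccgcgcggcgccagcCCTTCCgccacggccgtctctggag
RPL41: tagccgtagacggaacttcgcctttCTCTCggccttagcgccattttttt
RPLP1: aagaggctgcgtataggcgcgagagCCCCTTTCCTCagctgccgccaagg
RPL13A: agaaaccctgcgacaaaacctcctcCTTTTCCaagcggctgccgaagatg
RPS27L: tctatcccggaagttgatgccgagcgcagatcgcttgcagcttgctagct
RPL7L1: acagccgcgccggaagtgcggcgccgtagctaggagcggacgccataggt
The windows lie at chr11:75399493-75399542 (RPS3, plus strand), chr6:33272050-33272099 (RPS18, plus), chr5:150449715-150449764 (RPS14, minus), chrX:154398352-154398401 (RPL10, plus) and chr19:5690270-5690319 (RPL36, plus). The others lie at chr12:56116608-56116657 (RPL41, plus), chr15:69452793-69452842 (RPLP1, plus), chr19:49487583-49487632 (RPL13A, plus), chr15:63157453-63157502 (RPS27L, minus) and chr6:42879591-42879640 (RPL7L1, plus). The run is 12 bases in RPL10, 11 in RPS3 and RPLP1, 10 in RPS14, 9 in RPS18, 7 in RPL13A, 6 in RPL36 and 5 in RPL41. RPS27L and RPL7L1 have no such run at this start. The paralogs RPL22L1 and RPS4Y1 have the run at a start listed for them. RPL3, RPL6, RPL9, RPL10A, RPL19, RPL27, RPS4X, RPS7, RPS15 and RPS29 lack it at every start listed for them.

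RefSeq's table held a start for 51 of the 57 genes, and 39 of them (76.5%) began with a C and 4 further pyrimidines, against 5.14% of the 27305 genes in the table. Further words were searched on both strands in the 300 bases around the start, 250 before it and 50 from it, and no word contains another. CCGGAA, the core that ETS family factors bind, was present in 64.7% of the ribosomal protein genes and 20.1% of all genes. GGGCGG, an SP1-type GC box, was present in 56.9% and 48.3%, and TATAAA in 5.88% and 14%. These are matches of letters only, and a gene was counted when any start listed for it had the run or the word.

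No ribosomal protein gene passed the threshold (limma, Benjamini-Hochberg adjusted p of 0.05 over all 13824 probes) for CM against NCM at any of the 7 times. Over all probes, 0% were called at T0, 15 min, 30 min, 1 h, 3 h and 6 h, and 0.00723% at 16 h. Without adjustment, at p of 0.05, the number of ribosomal protein genes was 0 at T0, 3 at 15 min, 2 at 30 min, 1 at 1 h, 0 at 3 h, 3 at 6 h and 1 at 16 h. Over all probes that share was 3.26% to 5.06%, and the counts are 0 to 3 of 57 genes, which is near that background. The mean over 15 min, 30 min and 1 h, called the early mean here, called no ribosomal protein gene, against 0% of all probes, and the mean over 3 h, 6 h and 16 h, the late mean, called none against 0.0434%. The difference of the late and the early mean also called none, against 0%. Unadjusted, the early mean held 12 of 57 genes (21.1%), 11 of them lower, against 967 of 13824 probes over all. The late mean held 1, against 5.98% of all probes, and late minus early held 7, all higher in the late times, against 7.49%.

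The median change of the 57 genes, CM minus NCM on the log2 scale, was -0.11 at T0, -0.15 at 15 min, -0.20 at 30 min, -0.20 at 1 h, 0.04 at 3 h, -0.10 at 6 h and 0.12 at 16 h. Centring each array on its median in place of quantile normalization turned the sign at T0 (0.04), 3 h (-0.07) and 6 h (0.08), and moved the median at 1 h to -0.03. Leaving out an experiment turned it at T0 (0.05 without experiment 2), 3 h (-0.12 without experiment 1) and 16 h (-0.12 without experiment 1). With quantile normalization the median over all genes lay between -0.02 and 0.02 at every time. With array-median centring it moved as well, to 0.05 at T0, 0.03 at 1 h, -0.10 at 3 h and 0.06 at 6 h. Below 0 were 44, 42, 45, 50, 25, 44 and 16 of the 57 genes in the same order of times. The early mean had a median of -0.21 with 48 of 57 genes below 0, and the late mean a median of 0.01 with 27 below 0; over all genes the medians were -0.01 and 0.00. A median of -0.11 already stood at T0, and the early mean less the change at T0 had a median of -0.08, with 40 genes below 0.

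The medians of the small and the large subunit lay close together. At 1 h the small subunit's median was -0.29 with 22 of 24 genes below 0, and the large subunit's -0.16 with 28 of 33 below 0, against -0.09 and 0.00 with array-median centring. In the early mean the medians were -0.22 (22 of 24 below 0) and -0.21 (26 of 33 below 0). At 16 h, 16 of 24 and 25 of 33 genes were above 0, with medians of 0.11 and 0.14, but without experiment 1 the medians were -0.10 and -0.14. No test compared the subunits.

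**Figure D1:**
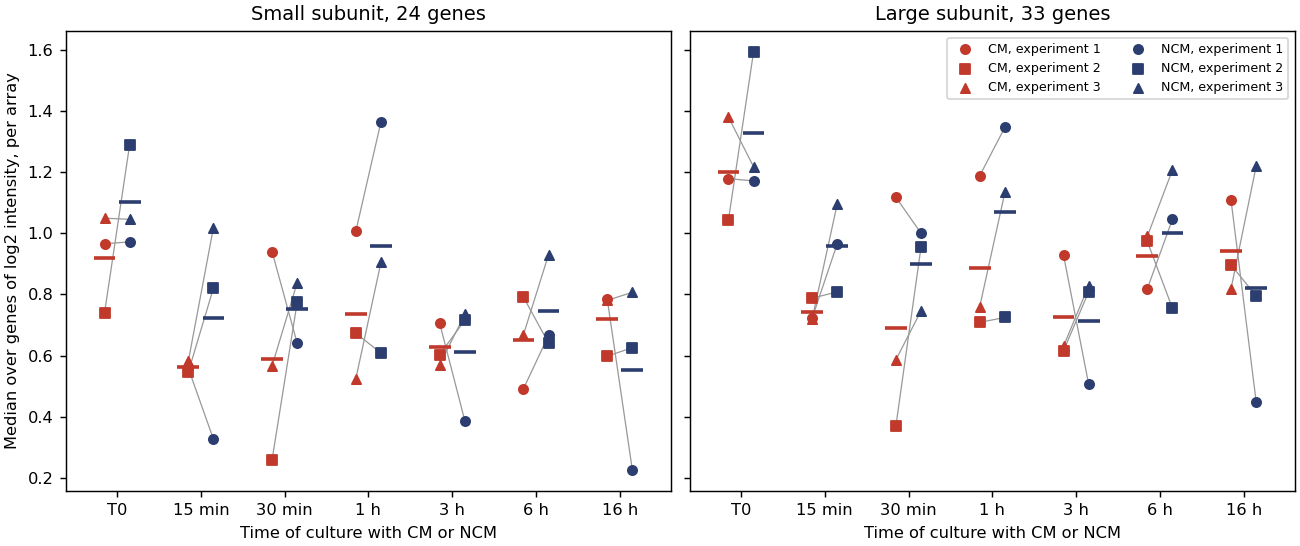
Median log2 intensity over the small subunit genes (left) and the large subunit genes (right) on each of the 42 arrays, by time; red CM, blue NCM, marker shape the experiment, bars the mean of 3 arrays, grey lines join the pair of one experiment. The T0 groups are the highest for the large subunit (mean 1.33 in NCM and 1.20 in CM); for the small subunit NCM at T0 is highest (1.10), and CM at T0 (0.92) lies below NCM at 1 h (0.96). At 16 h the line of experiment 1 drops from 0.79 in CM to 0.23 in NCM for the small subunit.

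By mean log2 intensity, 54 of the 57 probes were among the brightest 25% of all probes; the exceptions were RPS14 (-0.38), RPS24 (-1.36) and RPL22 (-1.74). Of the large subunit symbols, the brightest were the paralog RPL7L1 (2.16) and RPL37 (1.74). Of the small subunit symbols they were RPS16 (1.32) and RPS18 (1.25). Brightness depends on the probe and does not order the genes by abundance. The level of the whole set over time had its highest group mean at T0. The median of the 57 genes on an array was 1.22 ± 0.16 (SD, n = 3) in NCM and 1.10 ± 0.22 in CM at T0. At the other times it was 0.67 ± 0.16 (3 h) to 1.04 ± 0.32 (1 h) in NCM, and 0.63 ± 0.36 (30 min) to 0.83 ± 0.24 (1 h) in CM. The F test over the 7 times called no ribosomal protein gene in NCM, against 0.0145% of all probes, and none in CM, against 0.00723%. Unadjusted, RPLP1 and RPS15 were past p of 0.05 in NCM and RPL41 in CM, with adjusted p of 1.00 for each (limma); over all probes 231 and 163 of 13824 were past it.

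The pairs of a time did not agree in direction. In no time did the 3 pair medians of the ribosomal protein genes share a sign. At 16 h the pair medians were 0.59, -0.03 and -0.22, at 1 h -0.36, 0.06 and -0.37, at 15 min 0.12, -0.05 and -0.36, and at 30 min 0.07, -0.50 and -0.20. Within a pair, though, the genes moved together: in 11 of 21 pairs at least 75% of the 57 genes lay on the same side of 0, 10 times below it and 1 time above it. Over all genes no pair did so, and the share of genes below 0 ran from 46% to 59.3%. Quantile normalization gives all arrays the same distribution, which limits how far that share can move, so it is no test of the set. The ribosomal probes were also brighter, with a median of the mean log2 intensities of 0.86 against -0.97 over all genes.

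The most one-sided pairs were experiment 3 at 15 min, where 53 of 57 genes were lower in CM, and experiments 1 and 3 at 1 h and experiment 3 at 6 h, with 50 each. In experiment 1 at 16 h only 8 of 57 genes were lower, and the median was 0.59. The medians of both subunits had the same sign in 18 of 21 pairs, and differed by -0.28 to 0.18 (small minus large). The difference in deposited median intensity between the 2 arrays of a pair had the sign of the ribosomal median in 13 of 21 pairs. It was 0.518 in CM against 0.463 in NCM in that 16 h pair, and 0.807 against 0.527 in experiment 2 at 30 min, where the ribosomal median was -0.50. The hepatoma markers' median had the same sign as the ribosomal median in 15 of 21 pairs. It stayed near 0 in experiment 1 at 16 h (-0.03) and experiment 3 at 15 min (-0.07). Among pairs with the same sign, the markers had 0.37 beside a ribosomal 0.43 in experiment 1 at 3 h. They had -0.27 beside -0.50 in experiment 2 at 30 min and -0.15 beside -0.46 in experiment 2 at T0. In experiment 3 at 30 min they had -0.17 beside -0.20. The sign was opposite in experiment 1 at 16 h, and in experiment 2 at 6 h, with -0.18 beside 0.18. The part of array brightness, or of what the markers share with the set, in these shifts was not tested.

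**Figure D2:**
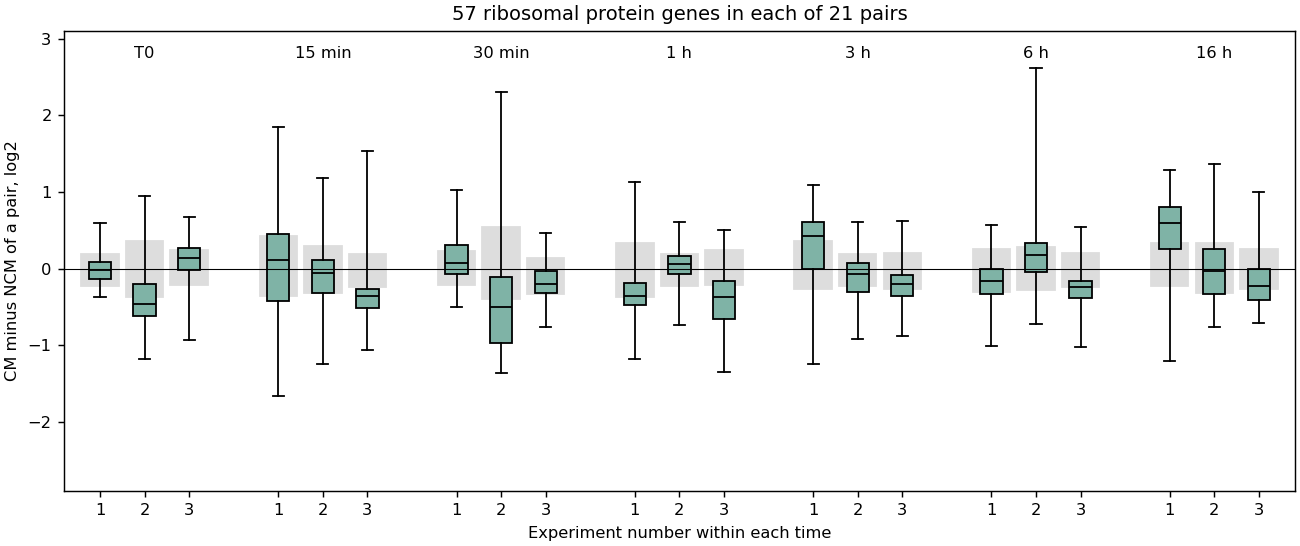
CM minus NCM on the log2 scale for the 57 ribosomal protein genes in each of the 21 pairs, by time and experiment; boxes span the interquartile range with the median, whiskers the full range, and the grey band behind each box the interquartile range of all 5631 genes. Boxes lie off the zero line as a whole, as in experiment 1 at 16 h (median 0.59), experiment 2 at 30 min (-0.50) and experiment 2 at T0 (-0.46).

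Over the 21 pair differences the median correlation between 2 ribosomal protein genes was 0.34, and over the 42 arrays 0.28; over all genes both were 0.00. These are descriptions, since the genes of an array share its labelling and hybridization. Each gene was then set against the median of the other 56. The correlation had a median of 0.68 and exceeded 0.5 for 36 of 57 genes, and RPL38 and RPS16 had the highest, 0.93 each. Of the 57, 8 were below 0: RPL37 (-0.84), RPS23 (-0.64), RPS7 (-0.50), RPS24 (-0.30), RPL22 (-0.25), RPL24 (-0.19), RPL29 (-0.09) and RPS14 (-0.06). These values belong to the brightest probe of each gene. The other probe of RPS7 was at 0.48, and the probes of RPS24 and RPL22 are dim.

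**Figure D3:**
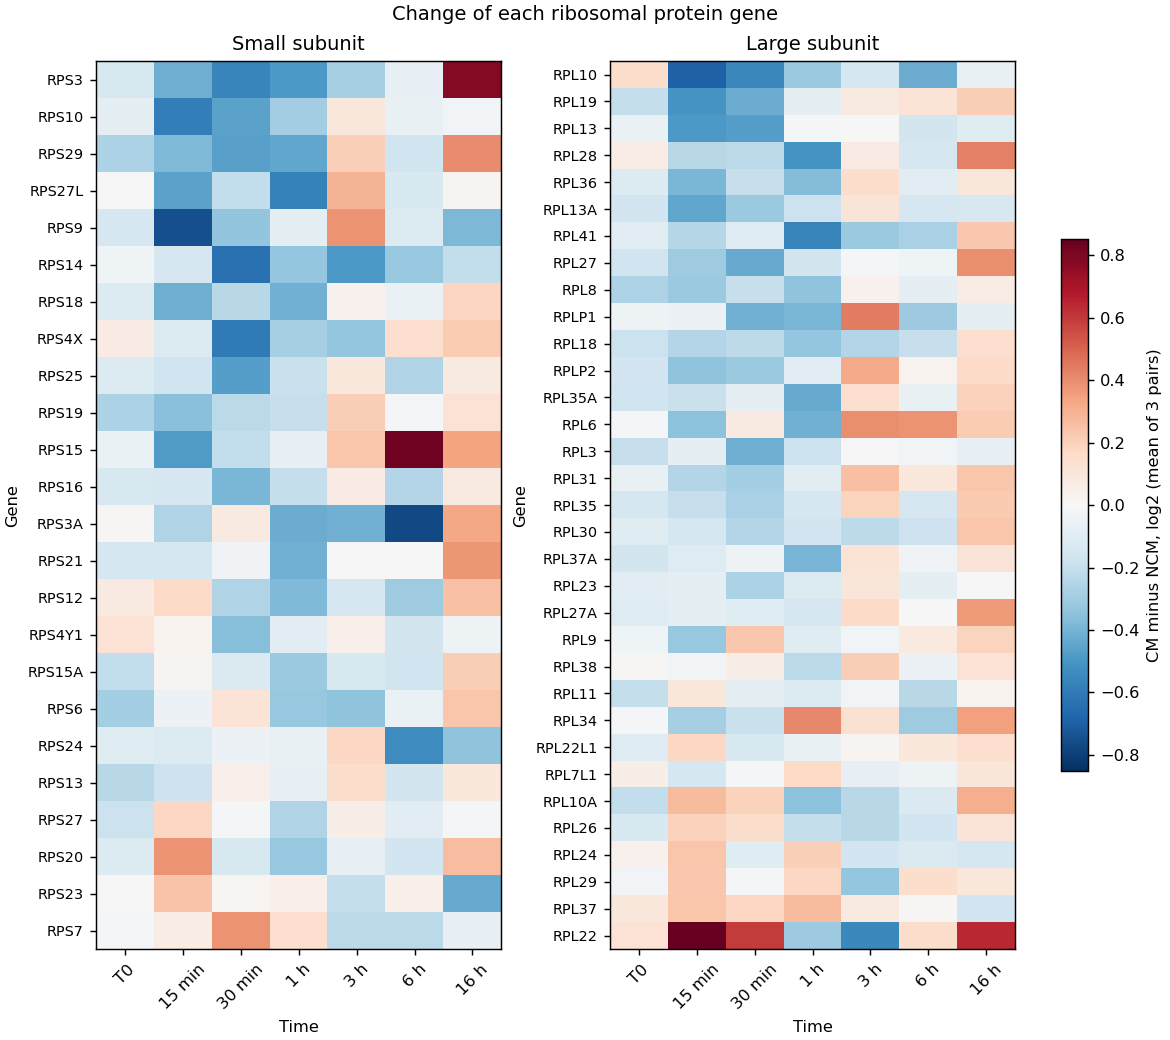
Change (CM minus NCM, log2, mean of 3 pairs) of each ribosomal protein gene at each time, small subunit left, large subunit right, genes ordered by the early mean from lowest to highest; blue is lower in CM and red higher. Most rows are blue from 15 min to 1 h, and RPL22 is the strongest red cell, 0.85 at 15 min.

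Among the small subunit genes RPS3, a protein at the mRNA entry of the ribosome, had the largest change at 16 h. Its CM arrays read 0.85, 0.20 and 0.72, and its NCM arrays 0.43, -1.16 and 0.15. CM was higher in 3 of 3 pairs, although the groups overlapped, and experiment 2 carried the widest gap. The change was 0.78 ± 0.24 (SE), with p of 0.00359 and an adjusted p of 0.94 (limma). In the early times RPS3 was lower in all 9 pairs, with an early mean of -0.49 ± 0.14 (adjusted p of 0.69). The same direction in all 9 early pairs was a rule for naming RPS3, RPL36 and RPL37, and its share over all probes was not counted. The late mean exceeded the early mean by 0.63 ± 0.19, with an adjusted p of 0.59.

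At 1 h the CM arrays of RPS3 read 1.15, -0.04 and 0.23 and the NCM arrays 1.75, 0.12 and 0.94. Each CM array lay below its partner, but the level differed more between experiments than between media. RPS3 differed between pairs over a wide range, from -1.36 to 1.86 over all arrays.

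**Figure D4:**
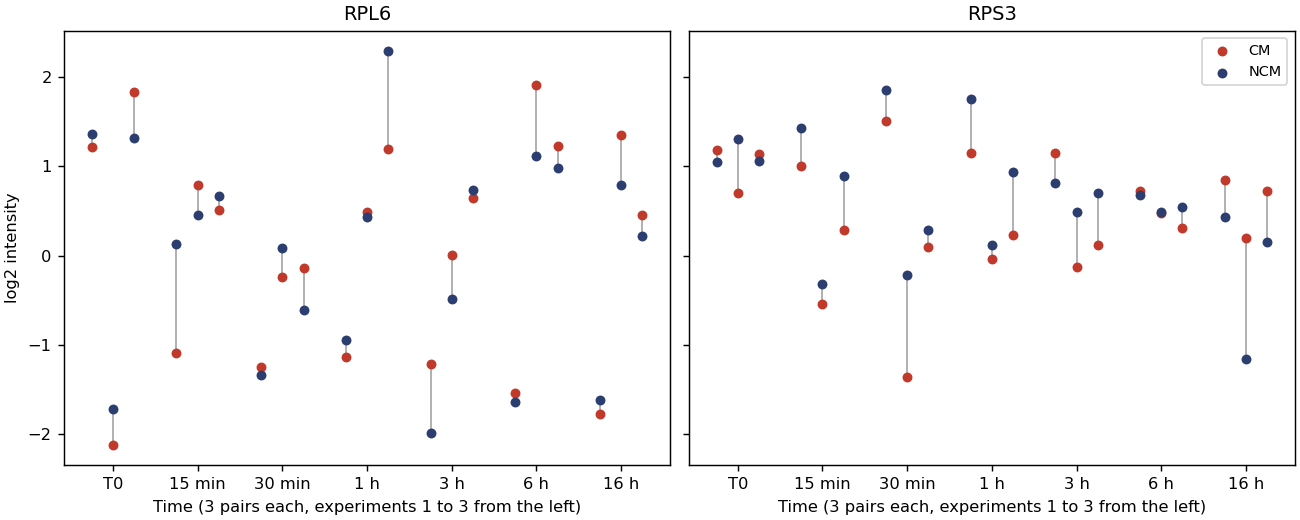
log2 intensity of RPL6 (left) and RPS3 (right) on all 42 arrays by time, with the 3 pairs of each time side by side; red CM, blue NCM, a grey line joins a pair. RPL6 spans 4.41 over the arrays while the 2 arrays of a pair stay within 1.22, and the red points of RPS3 lie below the blue in all 9 pairs from 15 min to 1 h.

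Other small subunit genes with the same direction in every pair at a time were not called either. RPS9, a protein beside the mRNA channel, had CM arrays of -0.59, -0.55 and -0.42 and NCM arrays of 0.92, -0.24 and 0.01 at 15 min. All 3 CM arrays were below all 3 NCM arrays, and experiment 1 had the widest gap. The change was -0.75 ± 0.33 (adjusted p of 1.00). RPS9 was higher in CM in 3 of 3 pairs at 3 h, by 0.38 ± 0.33.

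RPS4X at 30 min, on CM arrays 0.46, -0.71 and 0.12 against 0.61, 0.65 and 0.42 on NCM, differed by -0.60 ± 0.28, and RPS14, the protein lost in the 5q- syndrome, by -0.64 ± 0.35. The groups overlapped for both genes. RPS14 had CM at 0.27, -1.36 and -0.60 and NCM at 0.44, -0.09 and -0.13. For both genes experiment 2 had the widest gap. RPS3A was lower in CM by -0.77 ± 0.32 at 6 h, with CM at -0.73, 0.46 and 0.52 and NCM at 0.28, 1.13 and 1.15. These groups overlapped too. RPS24, a dim probe, differed by -0.54 ± 0.24 at 6 h in 3 of 3 pairs. RPS6, the substrate of the S6 kinases, was below NCM on all 3 CM arrays at 3 h, at 0.37, -0.004 and 0.08 against 0.49, 0.46 and 0.52, and its change was -0.34 ± 0.28. RPS19 differed by -0.36 at 15 min and 0.21 at 3 h, and RPS27 by -0.26 to 0.17 over the times. RPS15 at 6 h had 1 CM array far from the rest: 0.38, 2.47 and 0.64 against 0.34, -0.16 and 0.82.

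Of the large subunit, RPL10, which joins the late-forming 60S particle, was lower in CM at 15 min and 30 min. At 15 min its CM arrays read -0.54, -0.26 and -0.01, and its NCM arrays 1.12, 0.02 and 0.11. The groups did not overlap, but 1 NCM array lay well above the other two. The change was -0.69 ± 0.32 at 15 min and -0.55 ± 0.32 at 30 min, and the early mean -0.52 ± 0.18 with an adjusted p of 0.69.

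RPL36 was lower in CM in all 9 early pairs, with an early mean of -0.32 ± 0.13 (adjusted p of 0.69). Its CM arrays at 15 min read 0.65, 0.88 and 0.72 and its NCM arrays 1.39, 0.92 and 1.10, so the groups did not overlap. RPL41, the smallest ribosomal protein, differed at 1 h by -0.57 ± 0.28, with CM at 1.55, 0.73 and 1.30 and NCM at 1.97, 1.46 and 1.85. All 3 pairs were lower in CM, while the groups overlapped in level. RPL13A, which is also known to repress translation of inflammatory mRNAs once released from the ribosome, had an early mean of -0.31 ± 0.15, and RPL3 and RPL11 differed by at most 0.42 in size at any time.

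Of the stalk proteins, which recruit the elongation factors, RPLP1 and RPLP2 were measured. RPLP1 at 30 min read 2.30, 1.91 and 0.95 in CM and 2.31, 2.87 and 1.21 in NCM. Its change was -0.41 ± 0.31, and in experiment 1 the 2 arrays differed by 0.01 only. The brightest probe of RPLP2 differed by -0.34 ± 0.26 at 15 min and 0.32 ± 0.26 at 3 h. The other RPLP2 probe, with other accessions, gave 0.01 and -0.10 at these times, so neither change held on both probes. RPLP0, RPSA, RPS27A and RPL5 were not analysed here.

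RPL22, a dim probe in the lowest 12.8% of all probes by brightness, was higher in CM at 16 h, with CM at -1.60, -1.04 and -1.25 and NCM at -1.62, -1.94 and -2.24. The groups did not overlap, although experiment 1 differed by 0.03 only, and the change was 0.64 ± 0.40. At 15 min its change was 0.85 ± 0.40, with experiment 1 lower. RPL22 is a protein of the large subunit outside its catalytic core. At 16 h the brightest probe of RPL37 had 3 CM arrays all below the 3 NCM arrays. Over the 10 probes of RPL37 the change at 16 h ran from -0.16 for that probe to 0.54, so its direction depended on the probe.

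Groups of 3 that did not overlap were counted for every gene. At 15 min 4 of 57 genes had all CM arrays below all NCM arrays (RPL10, RPL36, RPS27L and RPS9), against 1.82% of all probes, and 0 all above, against 2.71%. At 1 h 3 were below (RPL10A, RPL35A and RPS27L), against 2.37%, and 1 was above (RPL7L1), against 2.4%. At 3 h 1 was below (RPS6), against 2.24%, and 0 above, against 2.58%. At 16 h 1 was below (RPL37), against 2.76%, and 1 above (RPL22), against 2.48%. There was none at T0 (1.47% below and 1.19% above over all probes), 30 min (1.59% and 1.17%) or 6 h (2.18% and 2.08%). The counts are 1 to 4 of 57 genes where there are any.

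The same direction in all 3 pairs, which asks less than groups that do not overlap, was counted as well. It is given for 15 min, 30 min, 1 h and 16 h only, each in the direction of the median change at that time. T0, where 44 of 57 genes already had a change below 0, is not among them. At 15 min 12 of 57 genes (21.1%) were lower in 3 of 3 pairs, against 9.51% of all probes. At 30 min the count was 17 (29.8%), against 11.7%, and at 1 h 15 (26.3%), against 12.8%. At 16 h 6 genes were higher in 3 of 3 pairs, against 13.3%. Because the genes of a pair moved together, these counts rest on 3 pairs a time and not on 57 separate measurements.

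RPL6 stood out for differences between experiments. Over the 42 arrays it ranged over 4.41 on the log2 scale, and 95.3% of its variance lay between pairs. At 6 h its CM arrays read -1.54, 1.91 and 1.23 and its NCM arrays -1.64, 1.12 and 0.98, so that both media of experiment 1 were low. The 2 arrays of a pair differed by at most 1.22. Over the 57 genes the median share of variance between pairs was 68.8%, and over all genes it was also 68.8%.

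RPL37, whose brightest probe had the lowest correlation with the other genes, has 10 probes, and they fell into 2 sets of 5 by the accessions the annotation gives them. The set of the brightest probe correlated with the median of the other genes at -0.84 to 0.01 over the 21 pairs, the other set at 0.60 to 0.92. At 1 h the probes of the first set differed by 0.06 to 0.43 and those of the second by -0.66 to -0.26. Within the second set the median correlation over arrays was 0.78, within the first 0.10, and between the sets -0.28. The brightest probe was higher in CM in all 9 early pairs, by 0.23 ± 0.10, but the mean over all 10 probes gave -0.054. The annotation gives both sets the same gene, and the sequences of the probes were not used here.

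**Figure D5:**
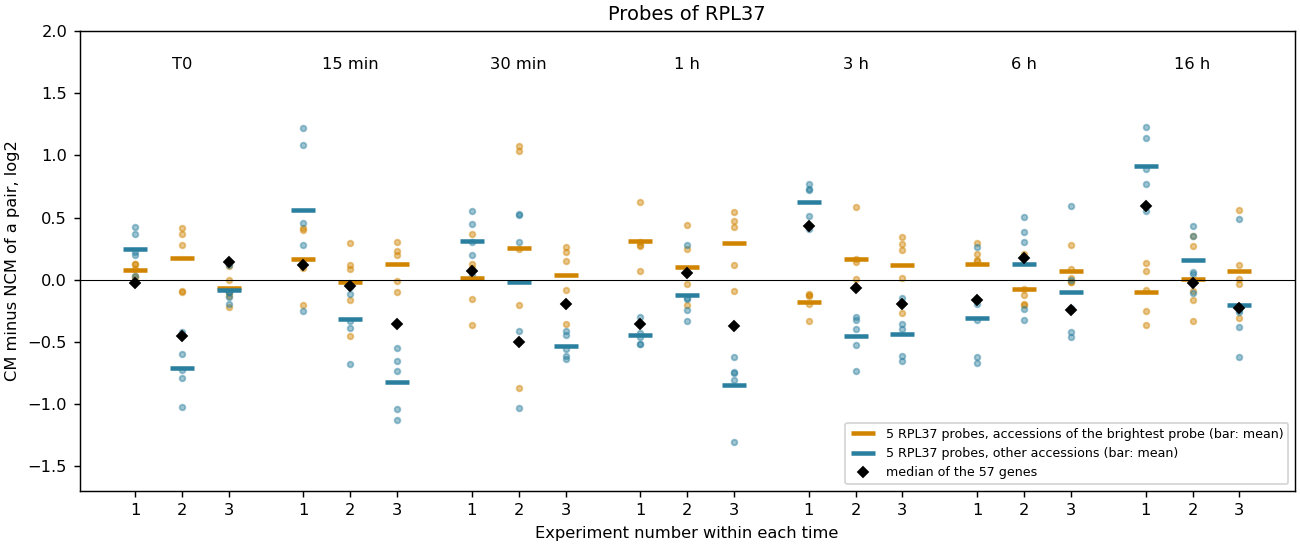
CM minus NCM (log2) of the 10 RPL37 probes in each of the 21 pairs; orange the 5 probes with the accessions of the brightest probe, blue the 5 with other accessions, bars the mean of each set, black diamonds the median of the 57 genes. The blue bars have the sign of the diamonds in 17 of 21 pairs, as in experiment 1 at 16 h (0.92 against 0.59), but not in 4, and lie at -0.02 against -0.50 in experiment 2 at 30 min, while the orange bars stay between -0.18 and 0.31.

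Probes of a gene that share their accessions correlated over arrays with a median of 0.64 (47 probe pairs of 5 genes), and probes with different accessions with 0.32 (81 probe pairs of 27 genes). RPL41, with 5 probes of the same accessions, gave early means of -0.39 to -0.13, all below 0. RPS4X had 3 probes with early means of -0.35 to -0.30, and a further probe of the same accessions at 0.23, which was 0.65 at 1 h. Ribosomal protein genes have many processed pseudogenes, and cross-hybridization of these probes was not tested.

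The paralogs were described with the rest. RPS27L, a p53-induced relative of RPS27, read 0.09, 0.10 and -0.38 in CM and 1.00, 0.27 and 0.27 in NCM at 1 h, and differed by -0.58 ± 0.25 (adjusted p of 0.98). At 3 h it was higher in CM in all 3 pairs, by 0.29. RPL7L1, the brightest probe of the set, differed by at most 0.17 in size at any time, and RPL22L1 by at most 0.17. That holds for this probe of RPL7L1 only: its other probe, with other accessions, gave -0.63 at 1 h and -0.64 at 3 h, and the 2 probes correlated at -0.61 over the arrays.

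FAU, the only measured ribosomal protein gene with another kind of symbol, encodes RPS30 fused to a ubiquitin-like protein, and its early mean was -0.46. Of the elongation factors and other mRNAs known for a TOP tract 8 of 14 were measured, none was called, and 7 had an early mean below 0, with a median of -0.15. Of these, EEF1D had -0.37 and EIF3E -0.33. The 40 mitochondrial ribosomal protein genes had a median of -0.05 with 28 below 0, and none was called. Of the ribosome biogenesis genes 13 of 26 were measured, with a median of -0.05 and none called, and of the regulators and S6 kinases 10 of 14, with a median of -0.06 and none called. Unadjusted at p of 0.05 the early mean held 2, 0, 0 and 2 of these lists in the same order, against 967 of 13824 probes. Within the 57 genes, the 39 with a TOP start had an early median of -0.21 (34 below 0) and the 12 without one of -0.24 (9 below 0).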

How the data were processed

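Intensities were deposited per array by the authors. For the array platform, scanner, background correction and scaling, the entry is: not given in the sources used here. Values were quantile normalized, floored at the 1st percentile (0.0812) and taken to log2. limma 3.58.1 (R 4.3.3) fitted all 13824 probes on 42 arrays, with the pair of cultures as a block and 1 CM effect per time (14 residual degrees of freedom), two-sided, with Benjamini-Hochberg adjustment. The fit was tested on simulated data. Pairing was checked: within a pair, the CM and NCM deviations had correlations of 0.308 to 0.754, all 21 of 21 above 0.1, and the labels state the pairing. Probe genes came from the platform annotation: 7336 probes named 1 gene, 7322 matched RefSeq by gene ID, and 576 named several and were left out. Figures used Python 3.11.15 and matplotlib 3.10.9.

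Members and lists were chosen with earlier results of these data known. Genes named are the fixed list, up to 2 of each subunit per time and for the early mean with the largest change among those with 1 direction in every pair, the brightest and dimmest, and the 3 genes whose probes differ most; others were chosen after their values were seen. Alternatives were no pair block, deposited values, array-median centring, leaving out the dimmest 25% of probes, a floor at the 10th percentile, the mean of all probes, no copied values, neighbour centring and leaving out each experiment. The replicates are separate cultures of 1 cell line. The number of arrays limits precision.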

Additional observations from a re-analysis of the deposited data

Results flagged for a closer look

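For 8 of the named genes the change was lower in all 3 pairs at 1 time and higher in all 3 pairs at another. The difference between those times was not tested itself. Most of these genes were named for having the same direction in every pair at a time, and the times with the most extreme changes were taken. At 15 min 9.51% of all probes were lower in all 3 pairs, and at 16 h 13.3% were higher. The share of all probes with both directions was not counted. The differences of the 2 changes on the log2 scale were 1.34 for RPS3 (16 h against 30 min), 1.13 for RPS9 (3 h against 15 min), 0.87 for RPS27L (3 h against 1 h), 0.66 for RPL34 (16 h against 6 h), 0.57 for RPS19 (3 h against 15 min), 0.55 for RPS15 (16 h against 30 min), 0.43 for RPL37 (1 h against 16 h) and 0.42 for RPS15A (16 h against T0). The late minus early contrast of these genes had adjusted p of 0.59 (RPS3) to 0.96 (RPL34) in limma. For RPL37 the difference holds for its brightest probe only, since its probes did not share a sign at 1 h or at 16 h.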

How the results depend on the processing

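No ribosomal protein gene was called at any time, in the early, late or late minus early contrast, or over time, under any of the alternatives that were run. With no replicate block, that is without the paired term, the count at 1 h was also 0, and the medians over genes did not change. The median of the genes without each experiment in turn ranged from -0.23 to 0.05 at T0, -0.23 to -0.02 at 15 min, -0.31 to -0.06 at 30 min, -0.36 to -0.12 at 1 h, -0.12 to 0.16 at 3 h, -0.21 to -0.002 at 6 h and -0.12 to 0.32 at 16 h. Without experiment 1 the 16 h median was -0.12, and without experiment 3 the early median was -0.12 against -0.21. Array-median centring left 32 of 57 genes below 0 at 1 h against 50, while its early median was -0.16, and the median over all genes shifted to -0.10 at 30 min. With the deposited values the early median was -0.14. Leaving out RPL7L1, RPL22L1, RPS27L and RPS4Y1, chosen after seeing the data, gave an early median of -0.21, and the change less that at T0, also chosen then, gave -0.08. Of the genes named by the rule 3 reversed: RPL37A at T0 with array-median centring (0.025), RPL10A at 3 h with neighbour centring (0.041) and RPL37 in the early mean with the mean of all probes (-0.054); the cause was not tested.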
